A study of Mus musculus with 56 samples.

Results

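The genes by which skeletal muscle takes up and oxidizes fatty acids were followed in gastrocnemius, a mixed calf muscle, of 56 mice. The set was listed by gene name and role, with earlier results of these data known, and held 35 genes. Of these, 34 were among the 15539 genes with counts, and Cpt1b was not analysed here. All 34 passed the filter on low counts, which left 14321 genes for testing. The mice formed 8 groups of 7 by sex, genotype label and wheel. Controls were littermates carrying floxed alleles of Elavl1 (HuR fl/fl), the gene of the RNA-binding protein HuR. Mice labelled HuRm-/- carried the same floxed alleles with Cre recombinase driven by the Mlc1f promoter of skeletal muscle fibers, so the other cells of the muscle were not targeted. All were C57BL/6 mice on chow 5015. The wheel was either locked or free to run, and the distance run was not analysed here. The labels give wheel access from 10 to 20 weeks of age in one field and 5 months of age with 10 weeks of wheels in another, and both are given because they could not be reconciled.

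Long-chain fatty acids enter a muscle fiber with the help of CD36 and the fatty acid transport proteins, travel bound to FABP3 and are activated to acyl-CoA. The carnitine shuttle carries them into mitochondria, where rounds of dehydrogenation, hydration, a further dehydrogenation and thiolysis release acetyl-CoA, and the electron transfer flavoprotein passes electrons on to the respiratory chain. Droplet proteins and lipases hold and release the stored fat that feeds this route, and nuclear receptors of the PPAR and ERR families with their co-activators are known to drive transcription of many of its genes.

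Hadha and Hadhb encode the subunits of the mitochondrial trifunctional protein, which carries out the last steps for long-chain substrates, and they are transcribed away from each other. In GENCODE M21 on GRCm38, Hadha lies on the minus strand at chr5:30118304-30155162 and Hadhb on the plus strand at chr5:30155248-30184593. The 85 bases between them are shown because both genes were called in each averaged comparison described below. They were read on the plus strand from RefSeq GRCm38.p6 at chr5:30155163-30155247, and 69.4% of them were G or C.

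Hadha-Hadhb: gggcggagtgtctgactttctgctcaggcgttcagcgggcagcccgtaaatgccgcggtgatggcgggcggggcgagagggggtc

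Promoter windows of RefSeq, from 250 bases before to 50 bases after the start, were matched for 30 of the 34 genes and searched on both strands for motifs of nuclear receptors. The motif AGGTCA, which PPAR and ERR receptors share, was in windows of 7 of the 30 genes (23.3%: Acadm, Acadvl, Cd36, Echs1, Plin2, Plin5 and Ucp3) against 18.1% of all genes with a window. The estrogen-related receptor element TCAAGGTCA, which contains that motif, was found in 0 of the 30 and 0.466% of all genes. The direct repeat AGGTCANAGGTCA, which also contains it, was found in 0 of the 30 and 0.0481% of all genes. Stretches of 60 bases are shown for 3 genes described below, 5′ to 3′ on the gene's strand, with the motif in capitals (TGACCT is the same motif read on the opposite strand). They lie at chr3:153944834-153944893 (minus, Acadm), chr11:70015483-70015542 (minus, Acadvl) and chr7:100472920-100472979 (plus, Ucp3).

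Acadm: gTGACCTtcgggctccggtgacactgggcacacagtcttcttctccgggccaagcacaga
Acadvl: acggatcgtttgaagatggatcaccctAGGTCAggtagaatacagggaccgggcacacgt
Ucp3: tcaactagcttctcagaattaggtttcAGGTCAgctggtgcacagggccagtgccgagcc

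The 56 libraries held 6639782 to 21633091 counts, with a median of 12380363. Values below are counts per 1000000 after TMM scaling (CPM), with 7 mice a group, and log2 fold changes are from limma with Benjamini-Hochberg adjustment over all genes tested. The skeletal muscle markers Ckm, Acta1, Mylpf, Myh4 and Tnnt3 summed to between 72102 and 108070 CPM in every mouse. Elavl1 was not lower in mice labelled HuRm-/-: it differed from controls by -0.05 (locked males), 0.11 (locked females), 0.44 (running males, adjusted p = 0.0242) and 0.01 (running females) on the log2 scale. By qPCR, the study reports lower Elavl1 mRNA in gastrocnemius of HuRm-/- mice than of controls. Where the Elavl1 reads counted here lie relative to the floxed exons is not given in the sources used here. Reads outside the deleted part would check nothing. The genotype is therefore called by its label throughout. Markers of liver, 16 genes such as Alb and Apoa1, summed to over 500 CPM in 10 mice and reached 3570 CPM in control female 15, so results are also given without those 10 mice. In whole muscle, fewer cells of a type and less RNA per cell cannot be told apart.

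The 21 genes that passed the test in at least 1 of the 18 comparisons are given first by their levels, as the median of 7 mice with the lowest and highest mouse in parentheses, from uptake to release of fat. Among the genes of uptake and activation these were Fabp3 and Acsl1. Fabp3 encodes the fatty acid carrier of the fiber's cytosol. In males Fabp3 had medians of 431 CPM (353 to 485) in locked controls, 677 (356 to 765) in running controls, 404 (344 to 592) in locked labelled mice and 518 (459 to 652) in running labelled mice. In females Fabp3 had medians of 457 CPM (354 to 572) in locked controls, 515 (391 to 631) in running controls, 416 (353 to 515) in locked labelled mice and 534 (426 to 675) in running labelled mice. Running control males had the highest median, and each running group had a higher median than its locked counterpart. Acsl1 encodes the main long-chain acyl-CoA synthetase of muscle. In males Acsl1 had medians of 192 CPM (182 to 232) in locked controls, 262 (193 to 271) in running controls, 229 (187 to 284) in locked labelled mice and 227 (213 to 253) in running labelled mice. In females Acsl1 had medians of 179 CPM (150.5 to 282) in locked controls, 208 (170.2 to 302) in running controls, 189.7 (155 to 202) in locked labelled mice and 226 (182 to 286) in running labelled mice. Running control males again had the highest median and locked control females the lowest.

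In the carnitine shuttle, Cpt2 encodes the carnitine palmitoyltransferase of the inner membrane. In males Cpt2 had medians of 35.2 CPM (30.9 to 38.9) in locked controls, 41.5 (35.3 to 49.0) in running controls, 33.3 (28.2 to 44.3) in locked labelled mice and 34.4 (26.1 to 43.3) in running labelled mice. In females Cpt2 had medians of 34.4 CPM (27.4 to 40.1) in locked controls, 42.4 (34.9 to 45.2) in running controls, 33.6 (26.4 to 48.3) in locked labelled mice and 38.5 (35.2 to 49.2) in running labelled mice. The running controls of both sexes had the highest medians, and all 8 ranges overlapped. Slc25a20 encodes the carrier that exchanges acylcarnitine for carnitine. In males Slc25a20 had medians of 66.6 CPM (61.0 to 81.1) in locked controls, 79.8 (59.3 to 99.7) in running controls, 64.7 (56.7 to 83.0) in locked labelled mice and 71.6 (57.3 to 106) in running labelled mice. In females Slc25a20 had medians of 53.1 CPM (44.9 to 71.7) in locked controls, 66.2 (54.3 to 77.1) in running controls, 49.99 (44.6 to 73.9) in locked labelled mice and 60.4 (50.6 to 73.9) in running labelled mice. Medians in females lay below those of males with the same label and wheel in all 4 pairs. Crat encodes carnitine acetyltransferase, which moves short acyl groups between CoA and carnitine. In males Crat had medians of 87.3 CPM (83.6 to 96.3) in locked controls, 91.8 (80.7 to 108) in running controls, 99.5 (76.2 to 109) in locked labelled mice and 86.7 (72.5 to 105) in running labelled mice. In females Crat had medians of 67.2 CPM (59.0 to 76.3) in locked controls, 81.0 (77.6 to 101) in running controls, 72.2 (63.2 to 98.5) in locked labelled mice and 80.8 (66.9 to 88.1) in running labelled mice. Locked control females had the lowest median, and no mouse of that group reached the lowest locked control male.

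Among the acyl-CoA dehydrogenases, which take the first step of each round, Acadm encodes the enzyme for medium chains. In males Acadm had medians of 256 CPM (237 to 288) in locked controls, 255 (209 to 302) in running controls, 225 (199 to 266) in locked labelled mice and 229.8 (197 to 258) in running labelled mice. In females Acadm had medians of 222 CPM (208 to 252) in locked controls, 245 (204 to 279.6) in running controls, 188 (174 to 239) in locked labelled mice and 251 (201 to 257) in running labelled mice. Locked females labelled HuRm-/- had the lowest median and locked control males the highest. Acads encodes the dehydrogenase for short chains. In males Acads had medians of 49.6 CPM (44.3 to 58.2) in locked controls, 48.9 (37.0 to 57.7) in running controls, 47.5 (35.1 to 55.9) in locked labelled mice and 43.2 (37.1 to 49.2) in running labelled mice. In females Acads had medians of 46.8 CPM (40.4 to 57.8) in locked controls, 54.1 (48.3 to 65.2) in running controls, 43.2 (37.9 to 58.9) in locked labelled mice and 48.0 (35.1 to 59.2) in running labelled mice. The lowest median, 43.2 CPM, was that of running males labelled HuRm-/-, and that of locked labelled females rounded to the same value. Acadsb encodes the dehydrogenase for short branched chains. In males Acadsb had medians of 72.9 CPM (62.3 to 98.5) in locked controls, 79.9 (68.5 to 86.4) in running controls, 69.9 (55.8 to 75.1) in locked labelled mice and 70.8 (63.5 to 82.8) in running labelled mice. In females Acadsb had medians of 89.0 CPM (78.7 to 96.6) in locked controls, 86.2 (81.2 to 99.7) in running controls, 75.9 (66.2 to 99.6) in locked labelled mice and 83.8 (72.2 to 91.2) in running labelled mice. Each female median lay above that of males with the same label and wheel.

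From hydration to thiolysis, Hadha and Hadhb encode the trifunctional protein. In males Hadha had medians of 266 CPM (237 to 286) in locked controls, 313 (242 to 351) in running controls, 251 (185 to 279.9) in locked labelled mice and 241 (192 to 307) in running labelled mice. In females Hadha had medians of 234 CPM (197 to 257) in locked controls, 263 (205 to 300.1) in running controls, 189 (165 to 298) in locked labelled mice and 241 (199 to 287) in running labelled mice. Running control males had the highest median and locked labelled females the lowest. In males Hadhb had medians of 97.4 CPM (87.7 to 110.05) in locked controls, 133 (123 to 153) in running controls, 89.3 (73.3 to 119) in locked labelled mice and 99.6 (82.6 to 118) in running labelled mice. In females Hadhb had medians of 95.8 CPM (80.3 to 104) in locked controls, 102 (91.4 to 109.5) in running controls, 75.0 (66.5 to 106) in locked labelled mice and 108 (81.1 to 122) in running labelled mice. Hadhb had its highest and lowest medians in the same groups as Hadha. Hadh encodes a dehydrogenase of shorter hydroxyacyl-CoA chains. In males Hadh had medians of 143 CPM (129 to 166) in locked controls, 182 (156 to 199) in running controls, 119 (97.1 to 143) in locked labelled mice and 131 (122 to 167.8) in running labelled mice. In females Hadh had medians of 138 CPM (122 to 149.5) in locked controls, 130.2 (124 to 142) in running controls, 108 (83.2 to 150.03) in locked labelled mice and 141 (109.97 to 149.6) in running labelled mice. Running control males stood highest and locked labelled females lowest here too. Echs1 encodes the short-chain enoyl-CoA hydratase. In males Echs1 had medians of 61.4 CPM (50.7 to 79.9) in locked controls, 65.6 (56.3 to 73.8) in running controls, 58.5 (55.3 to 69.6) in locked labelled mice and 60.7 (53.6 to 78.6) in running labelled mice. In females Echs1 had medians of 69.7 CPM (59.96 to 80.3) in locked controls, 76.8 (69.8 to 83.0) in running controls, 62.7 (56.3 to 78.2) in locked labelled mice and 74.0 (64.2 to 85.6) in running labelled mice. Each female median lay above that of males with the same label and wheel, with overlapping ranges. Acaa2 encodes a thiolase of mitochondrial beta-oxidation. In males Acaa2 had medians of 126 CPM (121 to 154) in locked controls, 185 (132 to 219) in running controls, 132 (109 to 167.98) in locked labelled mice and 143 (103 to 179.6) in running labelled mice. In females Acaa2 had medians of 125 CPM (114 to 156) in locked controls, 150.01 (138 to 174) in running controls, 104 (91.9 to 164) in locked labelled mice and 161 (111 to 167) in running labelled mice. The median of running mice was above that of locked mice in all 4 pairs.

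Of the accessory enzymes, which bring double bonds into the place the cycle needs, Eci1 encodes an enoyl-CoA isomerase. In males Eci1 had medians of 90.1 CPM (87.0 to 102) in locked controls, 114 (101 to 128) in running controls, 91.6 (71.0 to 98.4) in locked labelled mice and 99.1 (89.1 to 104) in running labelled mice. In females Eci1 had medians of 82.1 CPM (75.8 to 86.5) in locked controls, 93.1 (87.8 to 119) in running controls, 85.0 (69.0 to 88.9) in locked labelled mice and 97.4 (84.6 to 107) in running labelled mice. Running medians were above locked ones in all 4 pairs. Ech1 encodes a dienoyl-CoA isomerase. In males Ech1 had medians of 151 CPM (138 to 175) in locked controls, 155 (110.4 to 199.7) in running controls, 138 (108 to 171) in locked labelled mice and 135 (106 to 152) in running labelled mice. In females Ech1 had medians of 148 CPM (129 to 172) in locked controls, 148 (129 to 159) in running controls, 118 (95.6 to 171) in locked labelled mice and 142 (119 to 163) in running labelled mice. Locked labelled females had the lowest median, and their range overlapped all others. Decr1 encodes a dienoyl-CoA reductase. In males Decr1 had medians of 71.8 CPM (69.5 to 77.1) in locked controls, 89.8 (62.0 to 92.7) in running controls, 75.0 (64.8 to 85.2) in locked labelled mice and 70.6 (66.3 to 92.1) in running labelled mice. In females Decr1 had medians of 63.3 CPM (56.01 to 77.4) in locked controls, 74.2 (63.5 to 78.7) in running controls, 69.3 (59.0 to 87.4) in locked labelled mice and 73.4 (60.7 to 86.6) in running labelled mice. Running control males had the highest median, although their lowest mouse lay below those of 3 other male groups. Etfdh, of the electron transfer genes, encodes the oxidoreductase that hands electrons to ubiquinone. In males Etfdh had medians of 60.05 CPM (56.2 to 71.7) in locked controls, 66.0 (55.3 to 77.2) in running controls, 49.6 (45.0 to 69.7) in locked labelled mice and 57.6 (42.7 to 64.1) in running labelled mice. In females Etfdh had medians of 58.2 CPM (55.2 to 72.9) in locked controls, 62.2 (49.8 to 82.2) in running controls, 49.6 (26.9 to 67.4) in locked labelled mice and 63.0 (46.1 to 68.1) in running labelled mice. Both locked labelled groups had lower medians than the other 6 groups.

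Among the thioesterases and the uncoupling gene, Acot2 encodes a mitochondrial acyl-CoA thioesterase, and its counts are uncertain because of its near-identical copy Acot1. In males Acot2 had medians of 36.8 CPM (33.8 to 39.2) in locked controls, 39.6 (25.3 to 50.9) in running controls, 30.1 (24.8 to 55.5) in locked labelled mice and 32.2 (25.8 to 52.6) in running labelled mice. In females Acot2 had medians of 24.7 CPM (18.7 to 42.8) in locked controls, 30.7 (20.1 to 62.2) in running controls, 29.3 (19.3 to 41.7) in locked labelled mice and 32.9 (20.5 to 45.1) in running labelled mice. Female medians lay below male ones in 3 of the 4 pairs, and the ranges were wide. Acot13 encodes a thioesterase that hydrolyses acyl-CoA. In males Acot13 had medians of 172 CPM (154 to 194) in locked controls, 242 (218 to 305) in running controls, 158 (138 to 197) in locked labelled mice and 174 (160.1 to 198) in running labelled mice. In females Acot13 had medians of 201 CPM (185 to 223) in locked controls, 205 (157 to 239.9) in running controls, 201 (175 to 226) in locked labelled mice and 174 (141 to 207) in running labelled mice. Running control males stood above all other groups by their median. Ucp3 encodes the uncoupling protein of skeletal muscle, whose level follows fatty acid supply. In males Ucp3 had medians of 23.1 CPM (14.1 to 31.4) in locked controls, 32.2 (18.1 to 44.1) in running controls, 42.0 (22.5 to 54.4) in locked labelled mice and 31.1 (22.5 to 43.8) in running labelled mice. In females Ucp3 had medians of 21.8 CPM (16.6 to 48.2) in locked controls, 20.6 (17.2 to 53.2) in running controls, 17.5 (13.5 to 31.2) in locked labelled mice and 48.9 (16.3 to 56.2) in running labelled mice. The highest and lowest medians were those of running and locked females labelled HuRm-/-. Pnpla2, of the droplet genes, encodes the adipose triglyceride lipase that starts the breakdown of stored fat. In males Pnpla2 had medians of 159 CPM (141 to 211) in locked controls, 174 (135 to 222) in running controls, 160.5 (129 to 188) in locked labelled mice and 173 (140.1 to 259) in running labelled mice. In females Pnpla2 had medians of 115 CPM (100.05 to 153) in locked controls, 139.8 (123 to 155) in running controls, 123 (98.1 to 161) in locked labelled mice and 133 (109.9 to 149) in running labelled mice. All 4 female medians lay below all 4 male medians.

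The wheel comparison addresses how the genes differ between running and locked-wheel mice of the same sex and genotype label. Averaged over the 4 pairs of groups, with 28 mice a side, 9 of the 34 genes were higher in running mice and 0 were lower. Of all genes, 5.96% were called in this comparison, 3.42% as higher and 2.54% as lower. The fold change was above 0 for 32 of the 34 genes with a median of 0.13, while it was above 0 for 53.1% of all genes with a median of 0.01. The genes called were Fabp3, Cpt2, Slc25a20, Hadha, Hadhb, Hadh, Acaa2, Eci1 and Acot13. By role, 1 of 5 genes of uptake and activation, 2 of 3 of the carnitine shuttle, 4 of 7 of the steps from hydration to thiolysis, 1 of 4 accessory enzymes and 1 of 5 of the thioesterase, uncoupling and malonyl-CoA group rose. The 4 acyl-CoA dehydrogenases, the 3 electron transfer genes and the 3 droplet genes gave no call in this comparison at the adjusted p of 0.05. At an unadjusted p under 0.05 there were 22 of the 34 genes and 2862 of all 14321.

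**Figure D1:**
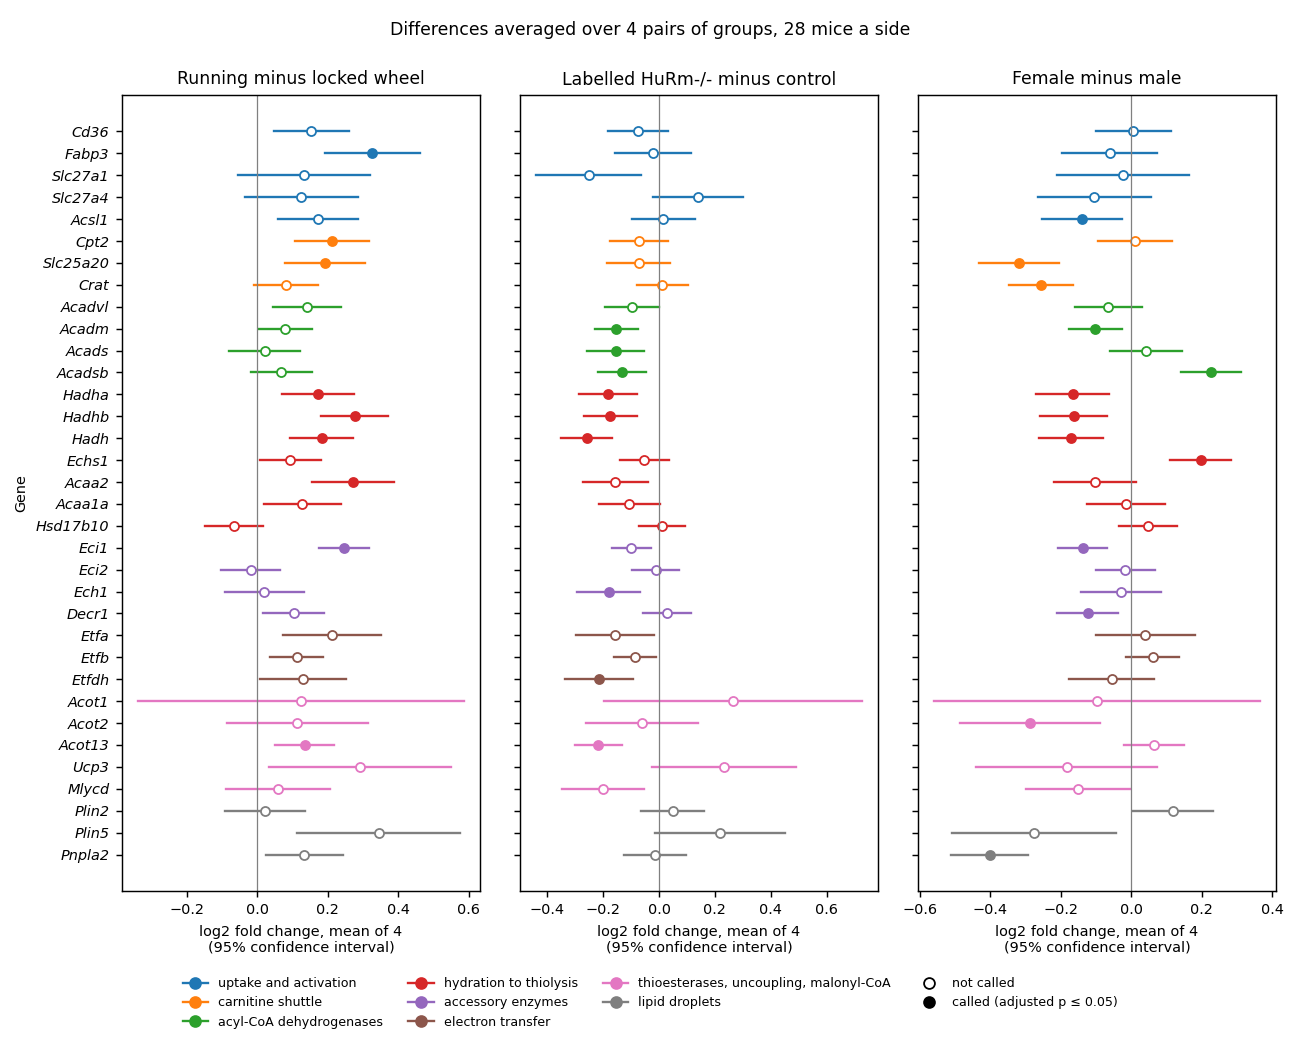
Log2 fold change (x axis) of each of the 34 genes (y axis), averaged over 4 pairs of groups with 28 mice a side, for running minus locked wheel, labelled HuRm-/- minus control and female minus male. Points are estimates, bars 95% confidence intervals, colors roles, and filled points passed an adjusted p of 0.05: 9 genes to the right of 0 in the wheel panel, 9 to the left in the label panel, and 2 to the right with 11 to the left in the sex panel.

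Hadhb, the subunit with the thiolase, showed the wheel difference most plainly in control males. It ran from 87.7 to 110.05 CPM (median 97.4) in locked control males and from 123 to 153 CPM (median 133) in running ones. No locked mouse reached the lowest running mouse. Groups without overlap, in either direction, were found for 0.999% of all genes in this comparison. The log2 fold change was 0.42 (95% confidence interval 0.24 to 0.61, adjusted p = 0.00596). In females labelled HuRm-/- Hadhb rose from a median of 75.0 CPM (66.5 to 106) to 108 CPM (81.1 to 122), with overlapping groups and a log2 fold change of 0.41 (adjusted p = 0.00673). In control females the medians were 95.8 and 102 CPM, and in males labelled HuRm-/- 89.3 and 99.6 CPM, and neither difference was called. Averaged over the 4, Hadhb was higher by 0.28 (0.18 to 0.37, adjusted p = 7.21e-05).

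Eci1 encodes an enoyl-CoA isomerase that prepares unsaturated fatty acids for the cycle, and it was called in 3 of the 4 pairs. In control females it lay between 75.8 and 86.5 CPM (median 82.1) with a locked wheel and between 87.8 and 119 CPM (median 93.1) with a running one. The groups did not overlap, which held for 2.21% of all genes there. In control males Eci1 went from 87.0 to 102 CPM (median 90.1) to 101 to 128 CPM (median 114), and in females labelled HuRm-/- from 69.0 to 88.9 CPM (median 85.0) to 84.6 to 107 CPM (median 97.4). Both of these pairs overlapped slightly. The log2 fold changes were 0.29, 0.27 and 0.27 in control males, control females and labelled females, and 0.16 in males labelled HuRm-/-, which was not called. The average was 0.25 (0.18 to 0.32, adjusted p = 1.96e-06), the lowest adjusted p among the 34 genes.

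Fabp3, the fatty acid carrier of the fiber's cytosol, ran from 353 to 485 CPM (median 431) in locked control males and from 356 to 765 CPM (median 677) in running ones. The running group spread widely and its lowest mouse lay among the locked mice. The log2 fold change was 0.54 (0.27 to 0.81, adjusted p = 0.0147), and the average over the 4 pairs was 0.33 (0.19 to 0.46, adjusted p = 0.00123). Acaa2, the thiolase of mitochondrial beta-oxidation, rose in control males from a median of 126 CPM (121 to 154) to 185 CPM (132 to 219), again with overlap, by 0.44 on the log2 scale (adjusted p = 0.019). Its average was 0.27 (0.16 to 0.39, adjusted p = 0.00172).

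Hadh, a dehydrogenase for shorter hydroxyacyl-CoA chains, was called in control males (0.31, adjusted p = 0.0381) and in females labelled HuRm-/- (0.32, adjusted p = 0.032). In control males it ran from 129 to 166 CPM with a locked and 156 to 199 CPM with a running wheel, and in labelled females from 83.2 to 150.03 and from 110 to 149.6 CPM, so groups overlapped in each. Both calls lay near the threshold, and leaving out each mouse in turn kept 5 of 14 and 7 of 14 fits past it. The average of 0.18 (adjusted p = 0.00743) was kept in all 56 such fits. It covers unlike pairs, since the median of Hadh in control females was 138 CPM locked and 130.2 CPM running. In labelled males the medians were 119 and 131 CPM, and neither pair was called. Among the shuttle genes, Cpt2, the inner-membrane carnitine palmitoyltransferase, averaged 0.21 (0.11 to 0.32, adjusted p = 0.00796). Slc25a20, the carnitine-acylcarnitine carrier, averaged 0.19 (0.08 to 0.30, adjusted p = 0.0295), without a call in any single pair. Hadha averaged 0.17 (adjusted p = 0.0304), with 0.23, 0.21 and 0.25 in control males, control females and labelled females and 0.00 in labelled males. Of the 56 fits that left out a mouse, Hadha kept this averaged call in 47 and Slc25a20 in 51.

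Acot13, a thioesterase that hydrolyses acyl-CoA, behaved differently in the 4 pairs. It ran from 154 to 194 CPM (median 172) in locked control males and from 218 to 305 CPM (median 242) in running ones, with no overlap and a log2 fold change of 0.54 (adjusted p = 8.82e-05). In control females the medians were 201 and 205 CPM, in males labelled HuRm-/- 158 and 174 CPM, and in females so labelled 201 and 174 CPM. The wheel difference was 0.43 lower in females than in males on the log2 scale (interaction 95% confidence interval -0.60 to -0.26, adjusted p = 0.000319). Acot13 was the 1 gene of 34 called in that interaction, in which 13.7% of all genes were called (6.79% higher, 6.9% lower in females). The average of 0.13 in running mice (adjusted p = 0.042) covers these unlike pairs and was kept in 26 of 56 fits that left out a mouse.

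**Figure D2:**
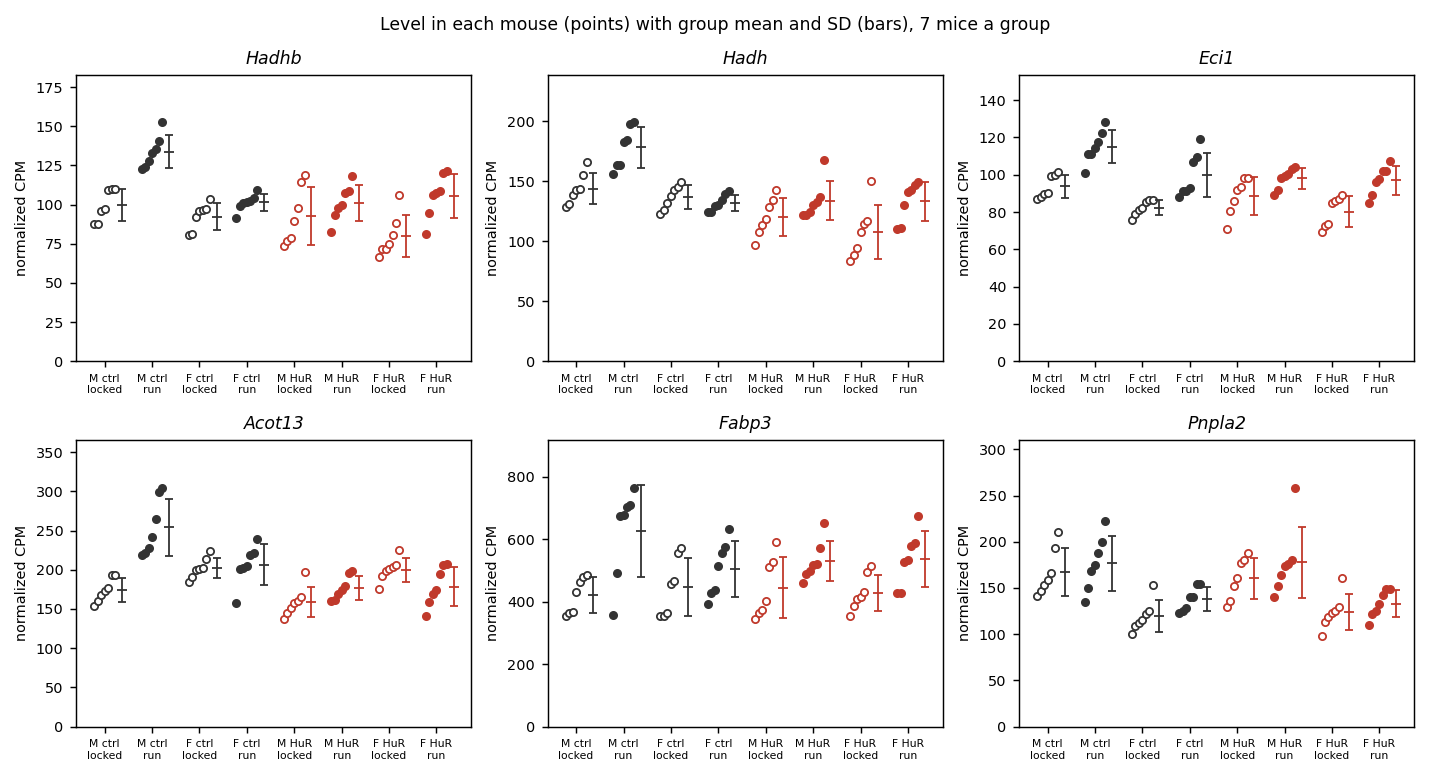
CPM (y axis, from 0) of Hadhb, Hadh, Eci1, Acot13, Fabp3 and Pnpla2 in each of the 56 mice, by group of 7 (x axis; M male, F female, ctrl control, HuR labelled HuRm-/-, run running wheel). Points are mice (open locked, filled running, black control, red labelled HuRm-/-) and bars the group mean with its SD; running control males stood above locked ones for Hadhb and Acot13 without overlap, and the mean of Pnpla2 was lower in females than in males in each pair of groups.

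Outside the averaged calls, Crat, which moves short acyl groups between carnitine and CoA, was called in control females. It ran from 59.0 to 76.3 CPM (median 67.2) with a locked wheel and from 77.6 to 101 CPM (median 81.0) with a running one, without overlap, by 0.35 on the log2 scale (adjusted p = 0.013). The difference between pairs was tested as the interaction of wheel and sex and was not called for Crat. Ucp3, the muscle uncoupling protein linked to fatty acid use, rose in females labelled HuRm-/- from a median of 17.5 CPM (13.5 to 31.2) to 48.9 CPM (16.3 to 56.2). Its groups overlapped, and the log2 fold change of 1.03 (0.51 to 1.54, adjusted p = 0.0128) had the widest interval among the wheel calls. In the other 3 pairs the change of Ucp3 was 0.37, 0.03 and -0.25 in control males, control females and labelled males.

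Pair by pair, 6 genes were called in control males, where 3.24% of all genes were called (1.49% higher, 1.75% lower). In control females 2 were called, against 8.74% of all genes (4.5% higher, 4.23% lower). In males labelled HuRm-/- 0 were called (0.0419% of all genes, 0.0209% each way), and in females so labelled 4 (3.85%, 2.05% higher and 1.8% lower). Each call was higher in running mice. In labelled males 4 of the 34 genes had an unadjusted p under 0.05, as had a similar share of all genes (1821 of 14321). There edgeR and DESeq2 also called 0. Of the 34 genes, 20 had a fold change above 0 in all 4 pairs, and 0 had one below 0 in all 4. The share of all genes with 1 direction in all 4 pairs was not counted. The 34 genes went together across mice (median r of 0.39 over their pairs), so they are not separate observations. The interaction of wheel and genotype label called 0 of the 34 genes in limma, edgeR and DESeq2, where limma called 0.00698% of all genes. At an unadjusted p under 0.05 there were 3 of the 34 and 1613 of all 14321 genes. A difference in wheel response between the labels was therefore not detectable.

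**Figure D3:**
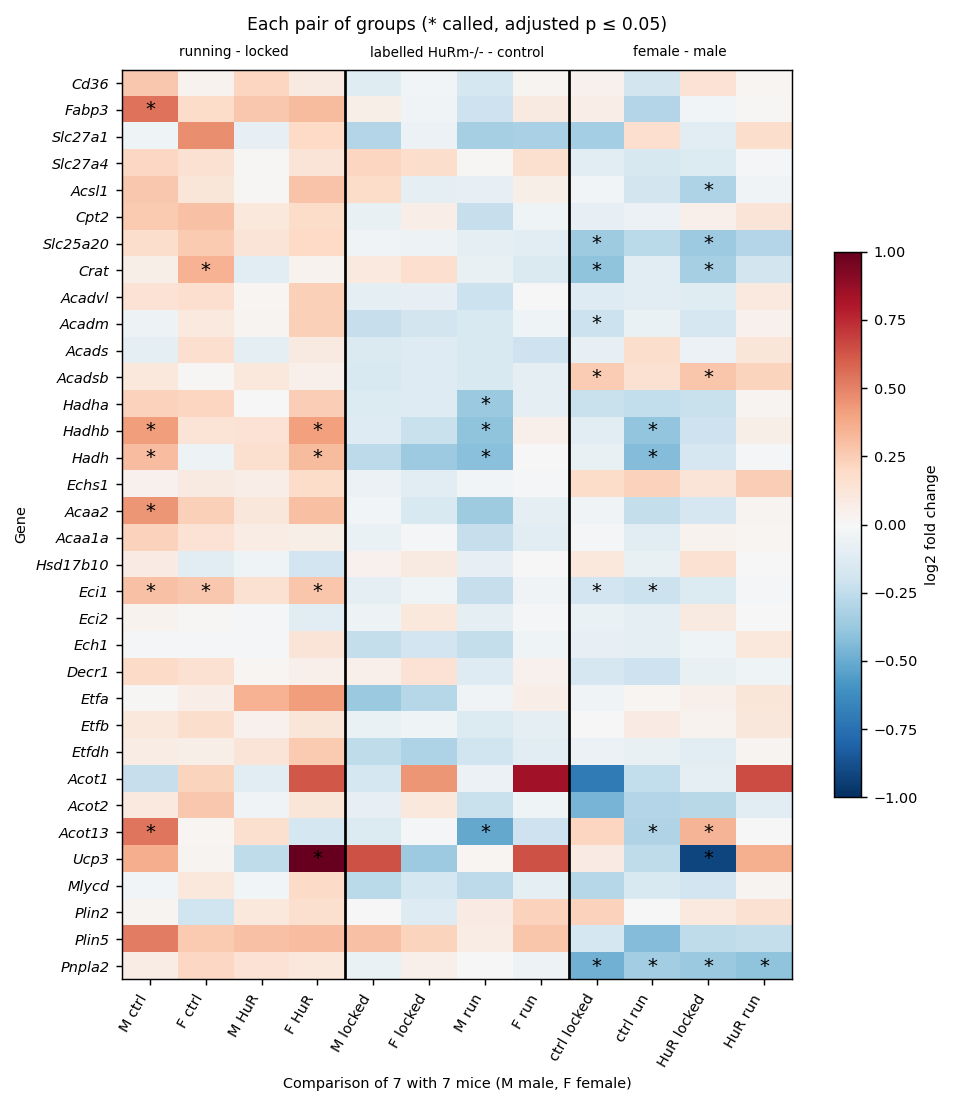
Log2 fold change (color, from -1 in blue to 1 in red) of the 34 genes (y axis) in the 12 comparisons of 7 with 7 mice (x axis; M male, F female, ctrl control, HuR labelled HuRm-/-). Stars mark calls: 6, 2, 0 and 4 in the wheel columns, 0, 0, 4 and 0 in the label columns, and 6, 5, 7 and 1 in the sex columns.

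Other values moved with the wheel. Liver markers were lower in running mice for 6 of 16 genes (median log2 fold change -2.02), with group medians of summed levels of 64.6 to 259 CPM in locked and 27.5 to 85.2 CPM in running groups. Without the 10 mice over 500 CPM, 5 of the 9 averaged calls remained (Fabp3, Cpt2, Hadhb, Acaa2 and Eci1), and the fold changes of all 9 stayed between 0.13 and 0.31. The calls of Crat and Eci1 in control females were lost without those mice, 3 of which were locked control females. Averaged over the 4 pairs, skeletal muscle markers were lower for 2 of 5 genes (median -0.11), endothelial markers higher for 2 of 4 (0.09) and slow-fiber markers higher for 2 of 8 (0.14). In running control females erythroid markers were lower for 4 of 5 genes and leukocyte markers for 2 of 5. Adipocyte markers were lower there for 4 of 7 genes, and with those markers as a covariate neither Crat nor Eci1 was called in that pair. In females labelled HuRm-/- 0 of the 4 calls passed when only those 14 mice were fitted. Among the averaged calls, Hadha, Slc25a20 and Acot13 were lost with the adipocyte markers as a covariate (adjusted p = 0.077, 0.057 and 0.0541). Hadha and Acot13 were lost with the liver markers as a covariate (adjusted p = 0.162 and 0.181), and 1 other gene then passed. The part of these markers in the wheel difference was not tested further.

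The label comparison addresses how the genes differ between mice labelled HuRm-/- and controls of the same sex and wheel. Averaged over the 4 pairs, 9 of the 34 genes were lower in labelled mice and 0 were higher, where 11.8% of all genes were called, 7.41% as lower and 4.43% as higher. The fold change was below 0 for 25 of the 34 genes with a median of -0.08, against a median of 0.01 over all genes. The 9 were Acadm, Acads, Acadsb, Hadha, Hadhb, Hadh, Ech1, Etfdh and Acot13. By role these were 3 of 4 acyl-CoA dehydrogenases, 3 of 7 genes from hydration to thiolysis, 1 of 4 accessory enzymes, 1 of 3 electron transfer genes and 1 of 5 of the thioesterase, uncoupling and malonyl-CoA group. None of the 5 genes of uptake and activation, the 3 shuttle genes and the 3 droplet genes was called.

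Hadh had the lowest adjusted p of the 9, with an average of -0.26 (-0.35 to -0.17, adjusted p = 5.71e-05). In running males it lay between 156 and 199 CPM (median 182) in controls and between 122 and 167.8 CPM (median 131) in labelled mice, and a single labelled mouse lay within the control range. The log2 fold change there was -0.41 (-0.59 to -0.24, adjusted p = 0.00669). In locked mice the medians went from 143 to 119 CPM in males and from 138 to 108 CPM in females, which were not called, and in running females they were 130.2 and 141 CPM.

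Acot13 averaged -0.22 (-0.30 to -0.13, adjusted p = 0.000257), with -0.51 in running males, -0.21 in running females, -0.13 in locked males and -0.01 in locked females. In running males it ran from 218 to 305 CPM in controls and from 160.1 to 198 CPM in labelled mice, without overlap (95% confidence interval -0.68 to -0.35, adjusted p = 0.000341). Hadhb also parted the running males, with 123 to 153 CPM in controls and 82.6 to 118 CPM in labelled mice (-0.40, adjusted p = 0.0106). The groups did not overlap for Hadhb either, and such a gap was found for 0.587% of all genes. Hadha differed there by -0.37 (adjusted p = 0.0335), with overlap, and kept this call in 5 of 14 fits that left out a mouse. The running control males of these pairs are the same mice that stood high in the wheel comparison.

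The dehydrogenases for medium, short and branched short chains were lower by small amounts. Acadm averaged -0.15 (-0.23 to -0.08, adjusted p = 0.0041), with medians of 256 and 225 CPM in locked males, 222 and 188 CPM in locked females, 255 and 230 CPM in running males and 245 and 251 CPM in running females, controls first. Acads averaged -0.16 and Acadsb -0.13 (adjusted p = 0.0338 for both), and each was kept in 44 of 56 fits that left out a mouse. Etfdh, which hands electrons from the flavoprotein to ubiquinone, averaged -0.22 (-0.34 to -0.09, adjusted p = 0.012). Ech1, an isomerase of dienoyl-CoA, averaged -0.18 (adjusted p = 0.0269). In every group of these genes the ranges overlapped between label and control.

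Pair by pair, 4 genes were called in running males, all lower, against 2.63% of all genes (0.754% higher, 1.87% lower). In locked males 0 were called (1.15% of all genes, of which 0.321% higher and 0.831% lower), in locked females 0 (0.384%, of which 0.126% higher and 0.258% lower) and in running females 0 (0%). At an unadjusted p under 0.05 there were 6, 5 and 4 of the 34 genes in these last 3 pairs. Among all 14321 genes there were 2386, 2043 and 1807, a similar share. edgeR called 0 in each, and DESeq2 called 1 in locked females and 0 in the others. The 95% confidence interval stayed within 1.5-fold either way for 29 of the 34 genes in locked males, 31 in locked females and 30 in running females. It also did so for 28 in running males, where 4 genes were called. This bound is therefore too wide to exclude smaller differences such as those called there. The interaction of label and sex called 0 genes in limma, edgeR and DESeq2, with 1 at an unadjusted p under 0.05 (0.00698% of all genes called). Of all 14321 genes, 1104 had an unadjusted p under 0.05 in that interaction.

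Slow-fiber markers moved with the label. Of 8 such genes (Myh7, Myl2, Myl3, Tnnt1, Tnni1, Tnnc1, Atp2a2 and Casq2), 7 were higher in labelled mice, with a median log2 fold change of 0.50. Their summed level ran from 848 to 1525 CPM in control males and from 931 to 2449 CPM in labelled males, and from 1233 to 2116 and 1743 to 2643 CPM in females. With these markers as a covariate, 0 of the 34 genes and 0 of all genes were called for the label, while the median over the 34 was -0.09 and the median SE of a gene rose from 0.0540 to 0.066. Hadh was then at -0.22 (adjusted p = 0.0728) and Acadm at -0.17 (adjusted p = 0.116). Without the 10 mice high in liver markers, Acadm, Hadhb, Hadh, Etfdh and Acot13 were still called.

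**Figure D4:**
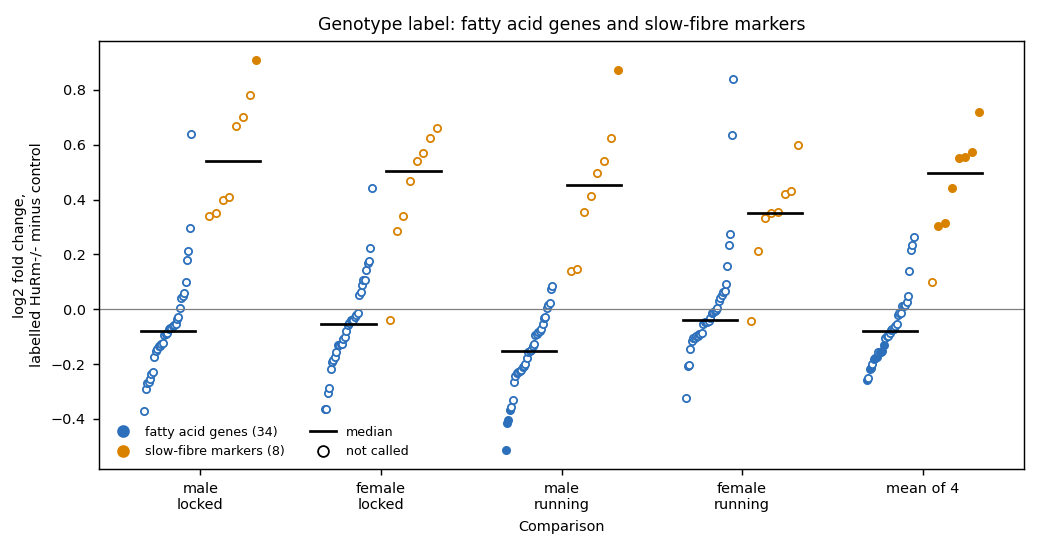
Log2 fold change (y axis) of labelled HuRm-/- minus control mice for the 34 fatty acid genes and 8 slow-fiber markers in each pair of groups and averaged (x axis). Points are genes, filled where called, and lines are medians; the averaged medians were -0.08 for the fatty acid genes and 0.50 for the slow-fiber markers.

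The sex comparison addresses how the genes differ between females and males of the same label and wheel. Averaged over the 4 pairs, 11 of the 34 genes were lower in females and 2 were higher, where 33% of all genes were called, 17.1% as lower and 15.8% as higher. The share of members called, 38.2%, was thus near that of all genes. The lower genes were Pnpla2, Slc25a20, Acot2, Crat, Hadh, Hadha, Hadhb, Acsl1, Eci1, Decr1 and Acadm, and the higher genes Acadsb and Echs1. The call of Acsl1 was kept in 23 of 56 fits that left out a mouse and lost with edgeR, DESeq2 and DESeq2 size factors, and that of Acot2 was lost with edgeR, DESeq2 and quality weights.

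Pnpla2, the adipose triglyceride lipase that starts the breakdown of stored fat, was lower in females in each of the 4 pairs. In locked controls it ran from 141 to 211 CPM (median 159) in males and from 100.1 to 153 CPM (median 115) in females. In running controls the ranges were 135 to 222 and 123 to 155 CPM, in locked labelled mice 129 to 188 and 98.1 to 161 CPM, and in running labelled mice 140.1 to 259 and 110 to 149 CPM. The sexes overlapped in all 4. The log2 fold changes were -0.48, -0.35, -0.37 and -0.41, and the average was -0.40 (-0.51 to -0.29, adjusted p = 2.6e-08).

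The shuttle genes Slc25a20 and Crat were lower in females by 0.32 (adjusted p = 7.21e-06) and 0.26 (adjusted p = 8.06e-06). Crat ran from 83.6 to 96.3 CPM in locked control males and from 59.0 to 76.3 CPM in locked control females, without overlap. Eci1 parted these groups too, with 87.0 to 102 and 75.8 to 86.5 CPM, as did 6.98% of all genes. In running controls Hadhb (123 to 153 in males, 91.4 to 109.5 CPM in females) and Hadh (156 to 199 and 124 to 142 CPM) did not overlap, with log2 fold changes of -0.40 and -0.43 (adjusted p = 0.00297 and 0.000675), as did 2.97% of all genes. Running control males again were the high group.

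Acadsb, the dehydrogenase for branched short chains, averaged 0.23 (0.14 to 0.31, adjusted p = 2.54e-05), with medians of 72.9 and 89.0 CPM in locked controls and 69.9 and 75.9 CPM in locked labelled mice, males first. Echs1, the short-chain enoyl-CoA hydratase, averaged 0.20 (0.11 to 0.28, adjusted p = 0.000232) and was not called in any single pair. Acot13 was higher in females among locked labelled mice (0.34, adjusted p = 0.00264) and lower among running controls (-0.30, adjusted p = 0.0133). Ucp3 was lower in locked labelled females, at 13.5 to 31.2 CPM against 22.5 to 54.4 CPM in males (-0.92, adjusted p = 0.00805), a call lost without the mice high in liver markers. Acot2 shares near-identical sequence with Acot1, so its lower level in females (-0.29, adjusted p = 0.021) may include reads of either gene.

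By pair, 6 genes were called in locked controls, 1 higher and 5 lower in females, against 21.5% of all genes (10.3% higher, 11.2% lower). In running controls 5 were lower (7.65%, of which 3.09% higher and 4.57% lower). In locked labelled mice 2 were higher and 5 lower (19.3%, of which 9.08% higher and 10.2% lower). In running labelled mice 1 was lower (5.57%, of which 2.3% higher and 3.26% lower). There 23 of the 34 genes were above 0 in females (median 0.02), as were 52.2% of all genes. Below 0 were 25 of the 34 in locked controls, 27 in running controls and 23 in locked labelled mice. Adipocyte markers were higher in females for 5 of 7 genes (median log2 fold change 1.44), slow-fiber markers for 8 of 8 (0.65), erythroid markers for 5 of 5 (0.75) and leukocyte markers for 4 of 5 (0.55). Skeletal muscle markers were lower in females for 3 of 5 genes (-0.15). Endothelial markers gave 1 higher and 1 lower of 4, and fast-fiber markers 1 higher and 2 lower of 6. Brown adipocyte markers summed to at most 4.87 CPM in any mouse. With the adipocyte markers as a covariate, 4 averaged calls remained, Pnpla2 (-0.30, adjusted p = 0.00695), Slc25a20 (-0.27), Acadsb (0.30) and Echs1 (0.27). Hadh then stayed at -0.17 without a call (adjusted p = 0.101). The other lost calls moved toward 0. Hadha went from -0.17 to -0.08, Crat from -0.26 to -0.15 and Hadhb from -0.16 to -0.11. Acadm went from -0.10 to -0.06, Decr1 from -0.12 to -0.05 and Acsl1 from -0.14 to -0.11. Eci1 went from -0.14 to -0.11 and Acot2 from -0.29 to -0.26. With the slow-fiber markers as a covariate, 7 of the 13 remained. Among the 6 that were lost, Acsl1 was at -0.18, Acadm at -0.12, Hadha at -0.19 and Decr1 at -0.16, each at least as far from 0 as before, while Hadh was at -0.12 and Acot2 at -0.22. Without the 10 mice high in liver markers 10 remained. The part of these markers in the sex difference was not tested further.

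Hadh, Hadha and Hadhb were called in all 3 averaged comparisons, where 0.628% of all genes were called in all 3. On average they were higher with running and lower in labelled mice and in females. The direction did not hold in every pair of groups. Hadh was not above 0 in all 4 wheel pairs, and Hadh and Hadhb were not below 0 in all 4 label pairs. Hadha and Hadhb were not below 0 in all 4 sex pairs. The comparisons use the same 56 mice. After group means were removed, the levels of Hadha and Hadhb went together across the 56 mice (Pearson's r = 0.58 and Spearman's rho = 0.67, each with a permutation p = 1e-05, the smallest that 100000 resamples can give, and r = 0.71 over 54 mice without the 2 farthest from the median of Hadha). Genes measured in the same mouse share its library depth and composition. The median r over all 561 pairs of the 34 genes was 0.39, with 111 pairs above that of Hadha and Hadhb.

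Across the 18 comparisons, 21 of the 34 genes were called at least once, against 52.6% of all genes, and 13 were never called. Among them were the transporters Cd36, Slc27a1 and Slc27a4, the droplet coats Plin2 and Plin5, Acadvl of the very-long-chain dehydrogenase, Etfa and Etfb of the electron transfer flavoprotein, the malonyl-CoA decarboxylase gene Mlycd, and Acaa1a, Acot1, Eci2 and Hsd17b10. Cd36 had group medians of 134 to 171 CPM and an average wheel difference of 0.15 (0.05 to 0.26, adjusted p = 0.0716). Acadvl was at 0.14 in the wheel comparison (adjusted p = 0.0615) and Plin5 at 0.34 (0.11 to 0.58, adjusted p = 0.0623). Plin5 had a fold change above 0 in all 4 label pairs, as had Slc27a4, while 16 of the 34 genes were below 0 in all 4. The share of all genes was not counted here either. Acot1, with group medians of 0.913 to 2.73 CPM, had the widest averaged interval (-0.34 to 0.59 for the wheel), and with 1 to 64 counts a mouse its interval reached past 1.5-fold. For the other 33 genes the averaged wheel and label intervals stayed within 1.5-fold either way.

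The summed CPM of the 34 genes puts the groups side by side. Locked control males had a median of 3475 CPM (3248 to 3702) and running ones 4375 CPM (3320 to 4580). In control females the medians were 3118 and 3499.9 CPM, in males labelled HuRm-/- 3216 and 3548 CPM, and in females so labelled 3091 and 3638 CPM, locked first. Running groups had the higher median in each pair, and the ranges overlapped in each.

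A further 51 genes of the same pathways, none of them among the 34, were listed for comparison and all were tested. Like the 34, they were chosen with earlier results of these data known. Their shares beside those of all genes are therefore a description and not a test. In the averaged wheel comparison 11 were higher and 0 lower (21.57% of the 51, against 5.96% of all genes). The largest changes that passed were in Bdh1, a ketone body dehydrogenase (0.53, adjusted p = 2.7e-05), Lpl, the lipoprotein lipase (0.38, adjusted p = 3.07e-05), and Plin3, a droplet coat (0.35, adjusted p = 0.000128). In the averaged label comparison 12 were lower and 0 higher (23.5%, against 11.8% of all genes). They were led by Pcca, a propionyl-CoA carboxylase subunit (-0.39, adjusted p = 9.37e-05), Rxrg, a retinoid X receptor (-0.38, adjusted p = 2.03e-05), and Pex11a, of peroxisome division (-0.35, adjusted p = 0.000556). In the averaged sex comparison 12 were higher in females, led by G0s2, an inhibitor of the lipase that Pnpla2 encodes (0.70, adjusted p = 1.48e-05), Lipe, hormone-sensitive lipase (0.51, adjusted p = 4.26e-08), and Esrrg, an estrogen-related receptor (0.44, adjusted p = 3.09e-05). There 15 were lower, so that 52.9% were called against 33% of all genes. The lower genes were led by the acyl-CoA synthetases Acsl3 (-0.86, adjusted p = 1.05e-11) and Acsl6 (-0.55, adjusted p = 1.68e-09) and the AMPK subunit Prkag3 (-0.53, adjusted p = 7.83e-10). Ppargc1a, a co-activator of fatty acid oxidation genes named here after its values were seen, was higher with running (0.15, adjusted p = 0.0419) and lower in labelled mice (-0.21, adjusted p = 0.00153) and in females (-0.30, adjusted p = 1.32e-06). Other listed regulators, also named after their values were seen, went the same or other ways. Lpin1 was at 0.29, -0.22 and -0.44 in these comparisons, and Esrrg was at 0.34, -0.25 and 0.44. Ppargc1b was higher with running (0.31) without an averaged call for label or sex. The wheel difference of 7 of the 51 depended on sex, 4 higher and 3 lower in females, the same 13.7% as among all genes.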

How the data were processed

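RNA of 56 gastrocnemius muscles was counted per gene. The authors deposited 1 table of raw counts, whole numbers of reads per gene with no normalization; the smallest total of a gene was 168. The submitters' processing notes name GRCm38, mm10, R 4.0.3 and edgeR 3.38.4; the aligner is not given in the sources used here. By the labels, libraries were made with a QuantSeq 3′ kit and read forward for 50 bases; the study's methods instead name stranded total RNA libraries, and the counts do not settle which. Groups came from the labels. Total counts ran from 6639782 to 21633091, and limited depth adds counting error for genes such as Acot1. Of the 15539 genes, 15503 had an entry in GENCODE M21, which gave coordinates.

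Counts were scaled by TMM (edgeR 4.0.16), filtered with filterByExpr, and fitted with voom and limma 3.58.1 in R 4.3.3 as 8 group means over all 56 mice, with Benjamini-Hochberg adjustment over the 14321 genes tested and calls at an adjusted p of 0.05 or less. TMM, limma and that threshold are the study's methods; voom was added to weight counts. CPM are counts per 1000000 of the TMM-scaled total. The 12 pairs of groups, 3 averages and 3 interactions were tested. All 34 genes are named, with levels in every group for those called in any comparison. Of the 51 pathway genes, at most 3 a direction are named per averaged comparison, by size among those called. Ppargc1a, Lpin1, Ppargc1b and further values of Esrrg were added after their values were seen. Lists were used whole. The members and the lists were chosen with earlier results of these data known. Each mouse is numbered in the labels; within groups, chi-square over degrees of freedom between the counts of mice was 3.30 to 46.1, above the 1 that sampling noise gives, so each mouse was kept as a sample. Mouse numbers do not repeat between groups of the same sex; of 22 number pairs between the sexes, 6 had a correlation of deviations over 0.1 (range -0.279 to 0.44), and of the 12 with the same label and wheel 4 did (-0.205 to 0.218), so numbers were not taken to pair mice. The linear model was tested on simulated data with 50 changed genes for each size of change. In the averaged wheel comparison it recovered 52% of 1.25-fold and 68% of 1.41-fold changes, with 8 false calls among 162. In the wheel comparison of control males, 7 against 7 mice, it recovered 14% and 42%, with 10 false calls among 115. Differences of these sizes can therefore be missed, mostly in single pairs. Alternatives were DESeq2 1.42.0, its size factors, edgeR's quasi-likelihood test, no filter, quality weights, only the groups compared, a replicate block, marker covariates, each mouse left out, and, added after seeing the data, leaving out 10 mice high in liver markers (over 500 CPM).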

Additional observations from a re-analysis of the deposited data

Results flagged for a closer look

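In 18 of 272 sets of 7 mice (34 genes in 8 groups) the highest or lowest mouse stood apart from the others by Dixon's test, where chance gives about 1 in 20, or 13.6 sets. Running control male 13 was low for 4 genes, Acadvl (151 CPM, others 187 to 215), Hadha (242 CPM, others 299.5 to 351), Plin2 (15.4 CPM, others 17.1 to 18.2) and Plin5 (12.5 CPM, others 23.3 to 35.7). Running control male 27 was low for Eci2 (36.5 CPM, others 42.5 to 47.6). Running control female 28 was low for Acot13 (157 CPM, others 201 to 239.9). Locked control male 19 was high for Plin2 (23.3 CPM, others 14.8 to 17.7), and locked control female 20 was high for Etfdh (72.9 CPM, others 55.2 to 59.3).

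Among mice labelled HuRm-/-, locked male 8 was high for Eci2 (53.6 CPM, others 36.7 to 41.6) and Etfdh (69.7 CPM, others 45.0 to 52.5), and locked male 12 for Acaa1a (16.7 CPM, others 10.5 to 12.3). Locked female 34 was low for Etfa (28.8 CPM, others 62.5 to 106) and Acot1 (0.474 CPM, others 1.32 to 2.17), and locked female 19 for Mlycd (33.01 CPM, others 43.1 to 49.6). Running male 4 was high for Hadh (167.8 CPM, others 122 to 137) and Pnpla2 (259 CPM, others 140.1 to 180.5), running male 2 was low for Etfdh (42.7 CPM, others 54.2 to 64.1), and running male 22 was high for Plin2 (25.4 CPM, others 16.4 to 18.6). Without running male 4, Pnpla2 was not called between the sexes in running labelled mice (adjusted p = 0.0849).

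The wheel difference of Acot13 depended on sex, by -0.43 on the log2 scale (female minus male, adjusted p = 0.000319 in limma).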

How the results depend on the processing

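Counts of called genes stayed within 1.5 times under the alternatives run, apart from those that follow, and no call changed direction; the cause was not tested. Averaged over pairs, the label comparison (9 calls) gave 14 with sample quality weights, 0 with slow-fiber markers as a covariate and 5 without the mice high in liver markers. The wheel comparison (9) gave 16 with quality weights and 5 without those mice, and the sex comparison (13) gave 4 with adipocyte markers as a covariate. With adipocyte markers, locked females by label gave 1 (0), the sex comparison gave 1 in locked controls (6), 3 in running controls (5), 2 in locked labelled mice (7) and 0 in running labelled mice (1), and the wheel comparison in control females gave 0 (2). Without the liver-high mice, sex gave 2 in locked controls and 2 in locked labelled mice, and the wheel 0 in control females. With quality weights, the label gave 1 in locked males (0), sex 8 in running controls and 2 in running labelled mice, and the wheel by sex interaction 3 (1). Locked females by label gave 1 with DESeq2, with its size factors and with no filter. Running males by label gave 2 (4) with slow-fiber markers. Fitting only the groups compared gave 4 in control females and 0 in labelled females (4) for the wheel.

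Leaving out each mouse gave 6 to 14 for the averaged wheel, 6 to 13 for the label and 11 to 14 for sex. The pairs gave 5 to 6, 2 to 2, 0 to 0 and 3 to 6 for the wheel (control males, control females, labelled males, labelled females), 0 to 1, 0 to 1, 3 to 6 and 0 to 0 for the label (locked males, locked females, running males, running females), and 3 to 7, 2 to 5, 5 to 9 and 1 to 2 for sex (locked controls, running controls, locked labelled, running labelled). The interactions gave 0 to 0, 1 to 2 (wheel by sex) and 0 to 0. The averaged wheel count of 14 came without control female 20 of the locked group. Sex in locked controls gave 3 without control females 15 or 16 or control male 31. In running controls it gave 2 without female 28 and 3 without females 1, 25 or 27 or males 5, 10 or 26. The label in locked mice gave 1 without labelled females 30 or 31 or labelled male 8. Sex in running labelled mice gave 2 without female 21 or male 2, and wheel by sex gave 2 without locked labelled female 34.

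Mouse numbers, not taken to pair mice, were fitted as a replicate block (correlation 0.0222) and gave 9, 9 and 13 averaged calls and changed no count. Depth limits Acot1 most, with 1 to 64 counts a mouse.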
